A study of Mus musculus with 14 samples.

Results

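The galectins are a family of proteins that bind galactose-containing sugars, and 6 of their genes, Lgals1, Lgals2, Lgals3, Lgals4, Lgals8 and Lgals9, were followed over 14 mouse arrays of intestinal and stomach stem cells and organoids. The members were taken by gene symbol from the annotation of the array, with the probe set of highest mean signal for each gene. The members were thus to be chosen by mean signal only among probe sets of the same gene, and since each of the 6 had 1 probe set that step selected nothing, and no filter on low signals was applied. They are 6 of 18820 genes measured. The family was chosen with earlier results of these arrays known, the lower Lgals2 signal of stomach stem cells among them, and its values are given as a description of these samples. Of the other galectin genes, Lgals7, Lgals12, Lgalsl and Grifin also had a probe set and are described after the members, while Lgals6 had no probe set of its own.

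Galectins are made in the cytosol, leave the cell without a signal peptide, and cross-link glycoproteins and glycolipids that carry beta-galactosides. Prototype galectins hold a single carbohydrate recognition domain, the chimera galectin adds a long N-terminal tail to its domain, and tandem-repeat galectins join a pair of domains by a linker. In the gut, galectin-4 is known for binding sulfated glycolipids in the rafts of the enterocyte brush border, where it takes part in the delivery and retention of digestive enzymes, and galectin-2 is also a product of the gastrointestinal epithelium.

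The study asked whether Lgr5+ stem cells of the small intestine (SI SCs) need the homeobox factor Cdx2 to stay intestinal rather than turn into stem cells of the stomach (Sto SCs). All cells came from organoid cultures. The sample titles give the controls and whole organoids as Cdx2-/fl, with 1 null and 1 floxed Cdx2 allele, and the others as Cdx2null, all with Lgr5-EGFP. By the study's methods the sorted cells derive from Cdx2-/fl mice with the Lgr5-EGFP-Ires-CreERT2 knock-in. In it the Lgr5 promoter drives EGFP and a tamoxifen-dependent Cre. The mice were of a mixed C57Bl6j/CBA background, of either sex and from 3 to 10 months old. The sorted controls thus carry 1 working Cdx2 allele, and in the Cdx2null SI SCs the floxed allele had been removed by 4-hydroxytamoxifen in culture. Sorted cells with high EGFP formed 3 groups, of 3 arrays for control SI SCs, 2 for control Sto SCs and 2 for Cdx2null SI SCs, from clonal organoids for which the growth notes give stomach medium (Sto med, which adds Wnt, Fgf10 and gastrin to the intestinal mix of Egf, Noggin and R-spondin), with no medium named for single sorted arrays. Whole control organoids formed 4 groups, SI organoids in Sto med (n = 1), SI organoids in the intestinal mix alone (SI med, n = 3), Sto organoids in Sto med (n = 1) and Sto organoids in SI med (n = 2). Where sorted cells are set against organoids in SI med, sorting and medium therefore cannot be told apart. The study's text describes the whole organoids as grown from wild-type glands and crypts, so that their genotype and whether they were clonal are not settled. Shared animals or clones between arrays of a group are not stated, so that p-values measure the spread between these arrays, which may be technical. The number of arrays limits the precision throughout.

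Signals are log2 values on the RMA scale, where a difference of 1 is a doubling, and a gene is called changed where the adjusted p was under 0.05 and the difference at least 2-fold. Group means are given with the SD over the arrays of the group. The epithelial list (Epcam, Cdh1, Krt8, Krt18, Krt19) had a mean of 11.80 to 12.25 on every array. The 10 mesenchymal markers averaged 4.14 to 4.51 and the 10 macrophage and leukocyte markers 4.20 to 4.96, with 9 to 10 and 8 to 9 of them below the median gene of the array, among them Ptprc and Adgre1 on 14 of 14 arrays. The exceptions were Cd68, a lysosomal gene of the leukocyte list, at 5.19 to 10.36 and not below the median gene on 13 arrays, Lyz2 at 3.04 to 8.50 (4 arrays), Cd74 at 3.75 to 8.73 (2 arrays), and of the mesenchymal list Vim at 4.76 to 7.71 (7 arrays) and Acta2 at 4.29 to 6.14 (2 arrays). Cdx2 itself, read by probes along the transcript that can include parts the deletion leaves in place, went against the label of 1 array: SI organoids SI med 1 read 5.52, against 9.92 and 9.67 in the other two of its group. Its mean over the enterocyte markers was 5.88 against 11.50 and 11.75 in those arrays, over the Paneth markers 5.28 against 10.12 and 10.42, and over the gastric gland markers 8.66 against 6.32 and 5.64. In the Cdx2null SI SCs it read 8.41 and 4.88, against 8.94 to 10.05 in the control SI SCs and 5.08 and 4.67 in the control Sto SCs. By its Cdx2 signal alone, Cdx2null SI SCs 1 thus lay between Cdx2null SI SCs 2 and the control SI SCs. Its enterocyte mean was 5.87, against 5.50 in Cdx2null SI SCs 2 and 7.41 to 8.16 in the control SI SCs. Its gastric gland mean was 9.81, against 9.07 in Cdx2null SI SCs 2 and at most 7.47 in the control SI SCs. By these marker means it lay on the side of its group. The comparisons that use SI organoids SI med 1 are given with and without that library, which lies in every mean of SI organoids in SI med. Control SI SCs 3 and SI organoids SI med 3 had been exported with signals rounded to 1 decimal and had lower upper quartiles (7.50 and 7.57) than the other 12 arrays (7.79 to 7.90).

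Lgals1 (chr15:78926725-78930465, GRCm38.p6), a prototype galectin that forms homodimers and is known from mesenchyme and proliferating cells, was the only member called in the Cdx2null SI SCs, and it was lower there. Its signal was 10.97, 11.38 and 10.59 in the control SI SCs, 9.42 and 9.02 in the Cdx2null SI SCs, and 9.10 and 9.35 in the control Sto SCs. All 3 control SI SC arrays lay above the other 4 sorted arrays, and the Cdx2null and stomach arrays overlapped. The Cdx2null SI SCs were 3.38-fold lower than the control SI SCs (log2 difference -1.76, SE 0.26, limma adjusted p = 0.0229), where 1.52% of all genes were called, 0.595% as lower. The control Sto SCs were 3.37-fold lower (-1.75, SE 0.26, adjusted p = 0.0173), where 2.86% of genes were called and 0.914% as lower. Both comparisons use the same 3 control SI SC arrays. In bulk RNA of this kind, fewer cells with a transcript and less transcript per cell cannot be told apart.

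Both calls of Lgals1 depended on the spread that the fit estimated. With all 14 arrays in 1 fit the adjusted p was 0.768 for the Cdx2null and 0.524 for the stomach comparison at the same differences. That fit includes SI organoids SI med 1, and its result for these comparisons without that array is not given. For control Sto SCs against Sto organoids in SI med, leaving that array out took the SE of Lgals1 from 0.94 to 0.34. Leaving out control SI SCs 1 (0.0909) or Cdx2null SI SCs 2 (0.168) ended the first call, and leaving out control SI SCs 1 (0.0666), control Sto SCs 1 (0.126) or control Sto SCs 2 (0.0841) ended the second.

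In organoids the higher Lgals1 signals were those in Sto med. SI organoids read 11.04 in Sto med and, in SI med, 10.60 (array 1, which goes against its label), 7.78 and 6.80. Sto organoids read 9.38 in Sto med and 6.83 and 7.11 in SI med. Except for SI organoids SI med 1, every organoid array in SI med lay below both organoid arrays in Sto med and every sorted array. The additive difference between media was 2.54 (SE 0.97, adjusted p = 0.493) with all 7 organoid arrays and 3.08, or 8.46-fold (SE 0.41, adjusted p = 0.0997), without array 1, and neither passed. The control SI SCs differed from SI organoids in SI med by 2.58 (SE 0.77, adjusted p = 0.293), and without array 1 they were 12.9-fold higher (3.69, SE 0.31, adjusted p = 0.000108). The growth notes place the organoids of the sorted cells in Sto med, so that sorting and medium cannot be told apart in that difference. In order of their means the groups ran from SI organoids in Sto med (11.04) and control SI SCs (10.98 ± 0.39), which did not differ beyond the spread, through Sto organoids in Sto med (9.38), control Sto SCs (9.23 ± 0.18) and Cdx2null SI SCs (9.22 ± 0.29), whose arrays all lay between 9.02 and 9.42, to SI organoids in SI med (8.39 ± 1.97) and Sto organoids in SI med (6.97 ± 0.20), which overlapped.

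**Figure D1:**
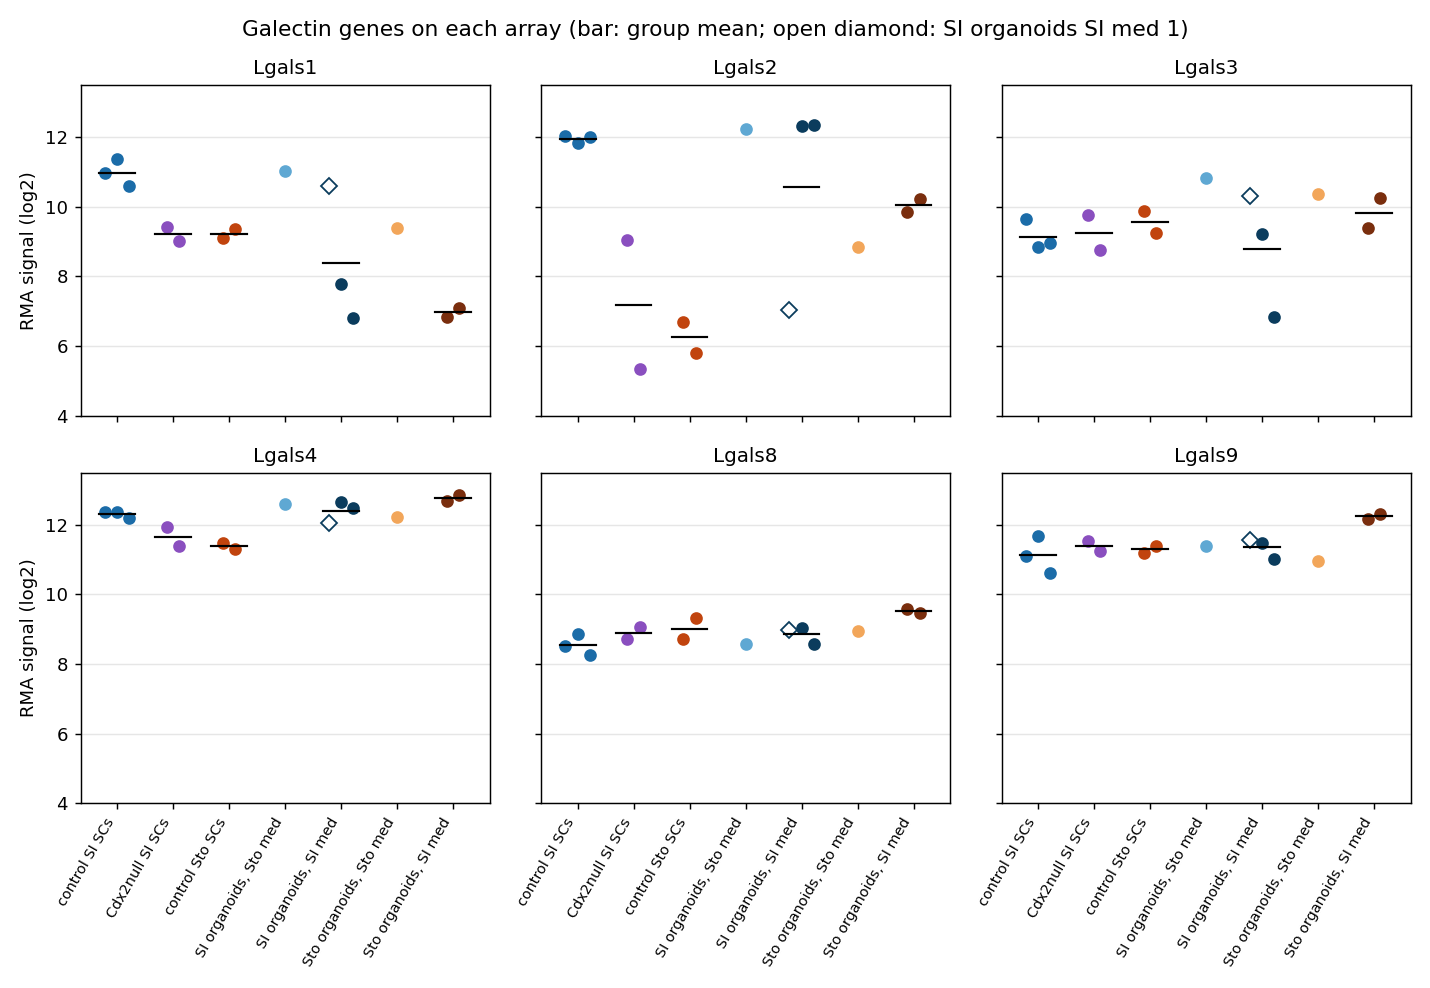
Log2 signal (y axis) of the 6 galectin genes on each of the 14 arrays, by group (x axis), with a point per array, a bar at the group mean and an open diamond for SI organoids SI med 1. Lgals2 runs from 5.33 to 12.36 and Lgals1 from 6.80 to 11.38, while Lgals4, Lgals8 and Lgals9 each have a range of 1.70 or less.

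Lgals2 (chr15:78850860-78855529), the other prototype member, lies on chromosome 15 as Lgals1 does. It had the widest range of the 6 members, 7.03 over the 14 arrays, wider than that of 99.5% of genes. The control SI SCs read 12.03, 11.82 and 12.01, the control Sto SCs 6.70 and 5.79, and the Cdx2null SI SCs 9.03 and 5.33. The control SI SCs did not overlap with either other sorted group, and the 2 Cdx2null arrays lay on either side of the 2 stomach arrays. The Cdx2null array with the higher Lgals2 signal, 9.03, was also the one with the higher Cdx2 signal, 8.41. Whether the remaining Cdx2 signal has a part in that spread was not tested.

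Lgals2 was 52.2-fold lower in the control Sto SCs than in the control SI SCs (-5.71, SE 0.94, adjusted p = 0.0273), a difference that was known when the family was chosen. Leaving out any 1 of the 5 arrays compared raised the adjusted p to between 0.0638 and 0.16 at differences of -5.25 to -6.16. With all 14 arrays, SI organoids SI med 1 among them, it was 0.194. The difference of the Cdx2null SI SCs was -4.77, or 27.3-fold (SE 0.94, adjusted p = 0.0712), and did not pass. It passed without Cdx2null SI SCs 1 (-6.62, adjusted p = 0.00208), without Cdx2null SI SCs 2 (-2.92, adjusted p = 0.0343), where the lone array left in the group is assumed to vary like the other groups, and when the dimmer genes were left out (adjusted p = 0.0171).

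SI organoids held Lgals2 in either medium, with 12.24 in Sto med and 7.02 (array 1), 12.33 and 12.36 in SI med. Sto organoids read 8.84 in Sto med and 9.85 and 10.23 in SI med, above both control Sto SC arrays. The difference of Sto from SI organoids in SI med was -0.53 (SE 1.78, adjusted p = 0.924) with array 1, where 1.41% of genes were called. Without array 1 the Sto organoids were 4.93-fold lower (-2.30, SE 0.21, adjusted p = 0.0016), where 13.9% of genes were called, 6.29% as lower. Sorted control Sto SCs differed from the Sto organoids in SI med by -3.80 (SE 1.68, adjusted p = 0.249) with no overlap, and passed in a fit of those 2 groups alone (adjusted p = 0.00759) and without array 1, which enters the estimate of the spread (adjusted p = 0.0238). In order, SI organoids in Sto med (12.24) and control SI SCs (11.95 ± 0.11) were followed by SI organoids in SI med (10.57 ± 3.07), whose range held every other group mean but that of control Sto SCs, by Sto organoids in SI med (10.04 ± 0.27) and in Sto med (8.84), and by Cdx2null SI SCs (7.18 ± 2.62) and control Sto SCs (6.25 ± 0.64), which overlapped.

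The promoters of Lgals2, Lgals4 and Lgals9 are shown because Lgals2 and Lgals4 ran against the gastric gland markers over the arrays and Lgals9 with the interferon response genes, as described after the members. The RefSeq promoter table (GRCm38.p6) has an entry for 5 of the 6 members, all but Lgals1. Each sequence is the 250 bases before the table's transcript start, read 5′ to 3′ on the strand of the gene, and capitals mark matches to the letters searched on both strands. For Lgals4 and Lgals8 that start, and the stretch searched before it, lie within the span given here for the gene. The bases before the outer end of those spans were not searched.
Lgals2, chr15:78855530-78855779, minus strand: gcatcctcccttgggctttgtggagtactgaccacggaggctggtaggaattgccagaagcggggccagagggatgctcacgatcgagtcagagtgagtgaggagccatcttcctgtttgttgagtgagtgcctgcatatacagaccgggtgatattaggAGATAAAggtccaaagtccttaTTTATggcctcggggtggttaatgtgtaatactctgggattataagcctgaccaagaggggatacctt
Lgals4, chr7:28833544-28833793, plus strand: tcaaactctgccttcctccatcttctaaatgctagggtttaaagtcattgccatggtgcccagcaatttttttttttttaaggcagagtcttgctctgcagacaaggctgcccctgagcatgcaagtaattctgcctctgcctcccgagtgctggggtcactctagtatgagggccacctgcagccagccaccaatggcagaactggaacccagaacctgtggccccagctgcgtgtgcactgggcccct
Lgals9, chr11:78984925-78985174, minus strand: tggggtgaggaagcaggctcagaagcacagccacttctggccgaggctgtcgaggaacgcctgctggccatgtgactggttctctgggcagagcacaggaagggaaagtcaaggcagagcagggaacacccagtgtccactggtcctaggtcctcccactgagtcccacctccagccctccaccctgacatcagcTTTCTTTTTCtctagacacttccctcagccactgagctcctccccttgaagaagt
The letters TTTAT, a core read by Cdx factors, were found at 2 places of the Lgals2 promoter, beginning 88 bases before the start on the opposite strand and 68 bases before it on the gene's strand. The first overlaps the core of Gata factors, AGATAA, which begins 90 bases before the start. TTTAT stands in 37.3% and AGATAA in 9.99% of the 32851 promoters of this length. The core of the interferon-stimulated response element (a pair of GAAA repeats with 2 free bases between them) was found once in the Lgals9 promoter, beginning 55 bases before the start on the opposite strand, and stands in 2.98% of promoters. The Hnf4 letters CAAAGTCCA (0.384% of promoters) were found in none of the 5, and none of the searched letters in those of Lgals3, Lgals4 and Lgals8. A match of letters is a description of the sequence and no evidence of binding.

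Lgals3 (chr14:47373860-47386167), the chimera galectin, which forms oligomers through its tail, lattices surface glycoproteins and gathers on damaged lysosomes, did not separate the sorted groups. It read 9.65, 8.83 and 8.95 in the control SI SCs, 9.76 and 8.76 in the Cdx2null SI SCs and 9.89 and 9.25 in the control Sto SCs. All 3 groups overlapped. The difference of the Cdx2null from the control SI SCs was 0.11 (95% interval -0.79 to 1.01, adjusted p = 0.956), with a sign that turned when each array was centred on its median, and that of the control Sto SCs 0.43 (interval -0.47 to 1.33, adjusted p = 0.721).

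In organoids Lgals3 was highest in Sto med, at 10.82 in SI and 10.38 in Sto organoids. In SI med it read 10.32 (array 1), 9.21 and 6.82 in SI organoids and 9.38 and 10.25 in Sto organoids. Both Sto med arrays lay above all 5 SI med arrays. With 1 array for each origin in Sto med, the additive difference between media was 1.35 (SE 0.95, adjusted p = 0.747), and 1.69 without array 1 (SE 0.83, adjusted p = 0.412). No gene was called in this comparison over the 7 organoid arrays (0% of genes, 1816 at an unadjusted p under 0.05 in limma), and 0.0266% were called without array 1. The lowest array, SI organoids SI med 3, is 1 of the 2 that were exported in rounded form. By group mean Lgals3 ran from SI organoids in Sto med (10.82) and Sto organoids in Sto med (10.38) over Sto organoids in SI med (9.81 ± 0.62), control Sto SCs (9.57 ± 0.45), Cdx2null SI SCs (9.26 ± 0.71) and control SI SCs (9.15 ± 0.44) to SI organoids in SI med (8.78 ± 1.79), and each neighbouring pair from Sto organoids in SI med downward overlapped.

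Lgals4 (chr7:28833122-28841710), the tandem-repeat galectin of the brush border, had its highest signals in whole organoids and control SI SCs. The control SI SCs read 12.36, 12.37 and 12.19, the Cdx2null SI SCs 11.93 and 11.38, and the control Sto SCs 11.49 and 11.31. The control SI SCs lay above both other groups without overlap. Neither difference was called, at -0.65 (SE 0.19, adjusted p = 0.216) for the Cdx2null SI SCs and -0.91, or 1.88-fold (SE 0.19, adjusted p = 0.059), for the control Sto SCs. The second was called after centring the arrays on their medians (-1.11, adjusted p = 0.0349), a scaling that moved the median gene of the comparison from 0.04 to -0.17. The probe set of Lgals4 lists 2 RefSeq mRNAs, 1 of which is not listed for Lgals4 in this annotation, and signal of the nearly identical galectin-6 gene of some mouse strains could not be told from it.

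Sto organoids in SI med had the highest Lgals4 signals of all, 12.69 and 12.86, against 12.06 (array 1), 12.66 and 12.49 in SI organoids in SI med, 12.60 in SI organoids and 12.21 in Sto organoids in Sto med. Sorted control Sto SCs were 2.60-fold lower than Sto organoids in SI med (-1.38, SE 0.23, adjusted p = 0.00813), where 6.03% of genes were called, 2.3% as lower. Lgals4 was the sole member called in that comparison with all arrays, and leaving out control Sto SCs 2 (0.0708) or either Sto organoid array (0.0503 and 0.0613) ended the call. The difference between stomach and intestine thus read -0.91 in sorted cells and 0.37 (SE 0.23, adjusted p = 0.51) in organoids in SI med, or 0.20 (SE 0.20, adjusted p = 0.598) without array 1. The test of the difference between these 2 origin effects gave -1.28 (SE 0.30, adjusted p = 0.106), where 0.845% of genes were called, and -1.11 without array 1 (SE 0.27, adjusted p = 0.0519, 4.54% of genes called). For Lgals2 the same test gave -5.18 (SE 2.17, adjusted p = 0.456), and -3.40 without array 1 (SE 1.21, adjusted p = 0.182). Both tests set sorted cells, which the growth notes place in Sto med, against organoids in SI med. Sorting and medium thus cannot be told apart in them. On the single organoid arrays in Sto med Lgals4 read 12.21 for Sto and 12.60 for SI, with Sto below SI as in the sorted cells. The order of the group means was Sto organoids in SI med (12.78 ± 0.13), SI organoids in Sto med (12.60) and in SI med (12.40 ± 0.31), control SI SCs (12.31 ± 0.10), Sto organoids in Sto med (12.21), Cdx2null SI SCs (11.66 ± 0.39) and control Sto SCs (11.40 ± 0.13). Neighbours overlapped or lay within each other's range except for the first pair and the step to the Cdx2null SI SCs.

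Lgals8 (chr13:12439402-12464977), a tandem-repeat galectin that binds glycans exposed on damaged endosomes and marks them for autophagy, varied least of the 6 members. It read 8.51, 8.85 and 8.25 in the control SI SCs, 8.72 and 9.06 in the Cdx2null SI SCs and 8.71 and 9.32 in the control Sto SCs. All 3 sorted groups overlapped, with differences from the control SI SCs of 0.36 (SE 0.26, adjusted p = 0.716) and 0.48 (SE 0.26, adjusted p = 0.464). In organoids it was 8.98, 9.03 and 8.59 for SI and 9.58 and 9.47 for Sto organoids in SI med, and 8.58 and 8.96 for SI and Sto organoids in Sto med. Both Sto organoid arrays in SI med lay above the other 12 arrays, and the difference from SI organoids was 0.66 (SE 0.20, adjusted p = 0.208), and 0.72 without array 1 (SE 0.23, adjusted p = 0.0883). The order of the group means was Sto organoids in SI med (9.53 ± 0.07), control Sto SCs (9.02 ± 0.43), Sto organoids in Sto med (8.96), Cdx2null SI SCs (8.89 ± 0.24), SI organoids in SI med (8.87 ± 0.25), SI organoids in Sto med (8.58) and control SI SCs (8.54 ± 0.30), and all neighbours after the first pair overlapped, except that SI organoids in Sto med lay just below the lowest SI organoid array in SI med.

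Lgals9 (chr11:78962979-78984924), a tandem-repeat galectin known as an interferon-inducible ligand of the receptor encoded by Havcr2, overlapped in all sorted groups. Its signal was 11.12, 11.68 and 10.62 in the control SI SCs, 11.53 and 11.26 in the Cdx2null SI SCs and 11.18 and 11.40 in the control Sto SCs. The control SI SCs spanned both other groups. The differences from them were 0.26 (interval -0.45 to 0.96, adjusted p = 0.841) and 0.15 (interval -0.55 to 0.86, adjusted p = 0.89), and both changed sign without control SI SCs 3. Sto organoids in SI med read 12.17 and 12.32, above all other 12 arrays, with SI organoids in SI med at 11.57, 11.49 and 11.01. The difference was 0.89, or 1.85-fold (SE 0.22, adjusted p = 0.153), and without array 1 it was 1.00 (SE 0.23, adjusted p = 0.0371), just under the 2-fold asked for a call. For control Sto SCs against Sto organoids in SI med it was -0.95 (SE 0.32, adjusted p = 0.117), a difference called when arrays were centred on their medians (-1.25, adjusted p = 0.00706), which moved the median gene to -0.30. In Sto med the SI organoids read 11.40 and the Sto organoids 10.96. The means of the groups below Sto organoids in SI med (12.24 ± 0.10), from SI organoids in Sto med (11.40) and Cdx2null SI SCs (11.40 ± 0.19) over SI organoids in SI med (11.35 ± 0.30), control Sto SCs (11.29 ± 0.15) and control SI SCs (11.14 ± 0.53) to Sto organoids in Sto med (10.96), all lay within the range of the control SI SCs.

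**Figure D2:**
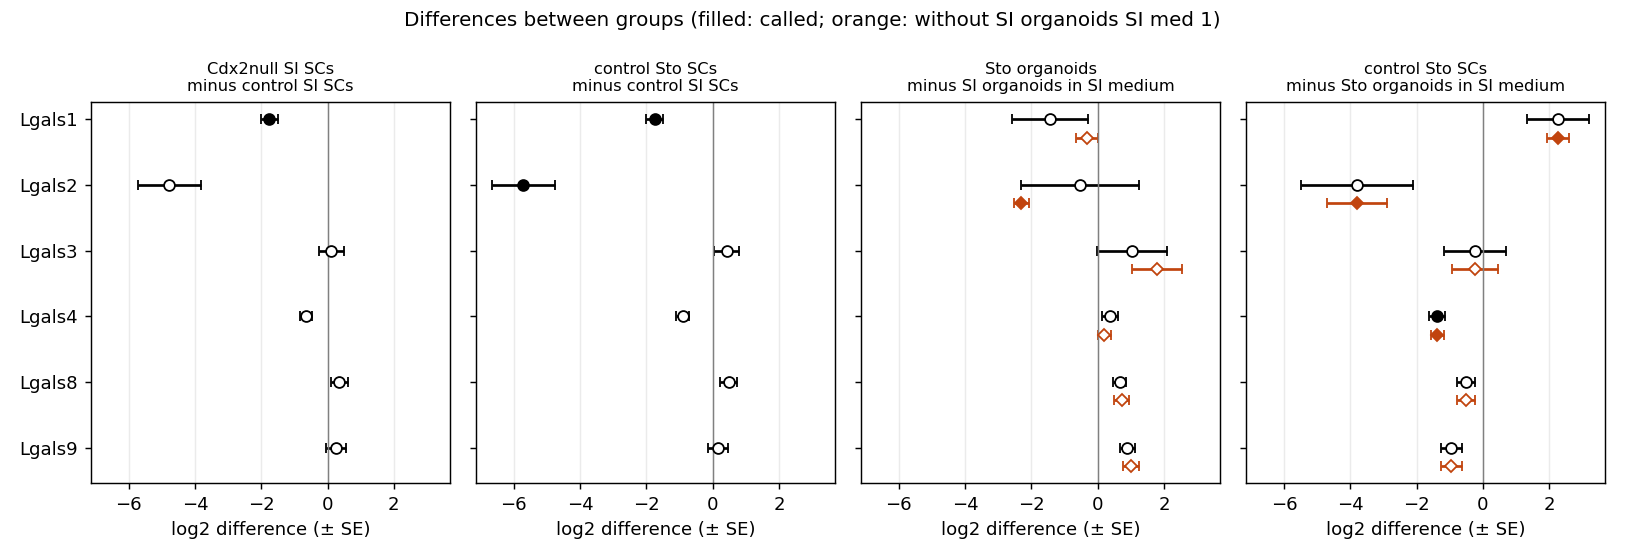
Log2 differences ± SE (x axis) of each galectin gene (y axis) in 4 comparisons. Filled symbols passed an adjusted p under 0.05 and 2-fold, and orange diamonds give the organoid comparison without SI organoids SI med 1, where Lgals2 moves from -0.53 to -2.30 and is called.

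Over the 6 members, 1 was called lower and none higher in the Cdx2null SI SCs, 2 were called lower and none higher in the control Sto SCs, and the median differences were -0.27 and -0.38, against 0.03 and 0.04 over all genes. Of all genes, 0.595% and 0.914% were called lower in these comparisons. The lower Lgals2 signal of the control Sto SCs, 1 of the 2 calls there, was known when the family was chosen. Set directly against the control Sto SCs, the Cdx2null SI SCs had no called gene at all in limma (0% of genes, with 286 genes and 0 members at an unadjusted p under 0.05). The differences there were -0.01 for Lgals1 (interval -0.67 to 0.66), 0.94 for Lgals2 (interval -1.50 to 3.37) and 0.26 for Lgals4 (interval -0.24 to 0.76). The interval of Lgals2 held differences in either direction. In the comparison of Sto with SI organoids in SI med no member was called with all arrays (2 of 6 at an unadjusted p under 0.05) and Lgals2 alone without array 1. In the control SI SCs against SI organoids in SI med, 0.159% of genes and no member were called with all arrays (1 of 6 at an unadjusted p under 0.05), and 5.11% of genes, 2.18% as higher, and Lgals1 alone without array 1. In the control Sto SCs against Sto organoids in SI med, leaving array 1 out of the fit gave 3 called members in place of 1, where 9.23% of genes were called. They were Lgals1, higher in the sorted cells by 2.26 (SE 0.34, adjusted p = 0.00269, and 0.216 with all arrays), where 5.44% of genes were called higher, and Lgals2 and Lgals4, lower there, where 3.8% were called lower. The study used SI med for the gastric differentiation of Sto organoids. The mean of the stem markers (Lgr5, Ascl2, Axin2, Olfm4, Smoc2) was 7.80 and 8.19 in the control Sto SCs. In Sto organoids it was 4.11 and 4.39 in SI med and 6.98 in Sto med. Sorting, medium and stem cell content cannot be told apart in that comparison.

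The enzymes that build galectin ligands were measured with the members. Of 18 enzymes of N-glycan branching and poly-N-acetyllactosamine synthesis, 1 was called, and it was lower in both sorted comparisons. The gene was B4galt4, a galactosyltransferase that makes N-acetyllactosamine, at -3.19 (SE 0.26, adjusted p = 0.00322) in the Cdx2null SI SCs and -3.08 (SE 0.26, adjusted p = 0.00265) in the control Sto SCs and with a group mean of 7.93 in the control SI SCs, 4.74 in the Cdx2null SI SCs and 4.85 in the control Sto SCs. The median of the 18 was 0.20 and 0.19, and 1.52% and 2.86% of all genes were called in these comparisons. None of the 4 sialyltransferases measured, which cap galactose, was called in sorted cells.

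Brush border glycoproteins, listed here as possible cargo or partners of galectin-4 without a test of that binding, gave more calls. Of 10 measured, 3 were called lower in the Cdx2null SI SCs and 5 in the control Sto SCs, none higher, with medians of -1.79 and -2.28. Over all genes, 0.595% and 0.914% were called lower in these comparisons. Alpi, the intestinal alkaline phosphatase, differed by -5.29 and -5.44, the microvillus cadherin Cdhr5 by -4.88 and -4.99 and the sucrase-isomaltase Sis by -2.50 and -2.46. Mep1b, a meprin subunit, at -2.04 and Cdhr2, the partner of Cdhr5, at -3.29 were called in the control Sto SCs. These genes overlap with the enterocyte markers, whose mean signal was 7.41 to 8.16 in the control SI SCs, 5.50 to 5.87 in the Cdx2null SI SCs and 5.48 to 5.51 in the control Sto SCs, and the part of enterocyte content in these differences and in those of Lgals2 and Lgals4 was not tested.

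Of 4 measured genes for sulfatide, the glycolipid that galectin-4 binds, none was called in the Cdx2null SI SCs, and Fa2h, the fatty acid 2-hydroxylase that hydroxylates its lipid chain, was called higher in the control Sto SCs (1.96, adjusted p = 0.0301) and in Sto organoids against SI organoids in SI med (5.18, adjusted p = 0.0319, and 5.58 without array 1, adjusted p = 0.000247). None of the 15 galectin-binding and lysosomal damage genes, and none of the 15 interferon response genes, was called in either sorted comparison. Between control Sto SCs and Sto organoids in SI med, Tfrc (2.02, adjusted p = 0.00115) and Cd44 (2.51, adjusted p = 0.0385), surface glycoproteins that bind galectins, were called higher in the sorted cells and Lgals3bp lower. Anpep, the brush border aminopeptidase N, was higher by 5.21 in the sorted stomach cells (adjusted p = 0.00124), and Mgat3, which adds the bisecting N-acetylglucosamine, was lower there (-2.11, adjusted p = 0.0252). The sialyltransferase St3gal1 (-2.41, adjusted p = 0.0421) and Fa2h (-3.21, adjusted p = 0.00549) were also lower in the sorted cells, each the 1 called gene of its list. Of the 15 interferon response genes, 3 were called lower there and 1 higher, where 6.03% of all genes were called, 2.3% as lower. The median of the 15 was -1.21, against -0.01 over all genes. The lower ones were the ubiquitin-like Isg15 (-1.38, adjusted p = 0.0125), Oasl2 (-4.19, adjusted p = 0.0421) and Mx1 (-2.40, adjusted p = 0.0346), and the chemokine Cxcl10 was higher (1.55, adjusted p = 0.00933). Isg15 was a dim gene, at 3.5 to 5.2 and below the median gene on 14 of 14 arrays. Mx1 (3.86 to 7.18) lay below it on 12 arrays, Cxcl10 (4.84 to 6.44) on 7 and Oasl2 (5.95 to 11.50) on 0. The part of the interferon response genes in the Lgals9 difference of -0.95 in that comparison was not tested. The list genes named for that comparison were also called without array 1.

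**Figure D3:**
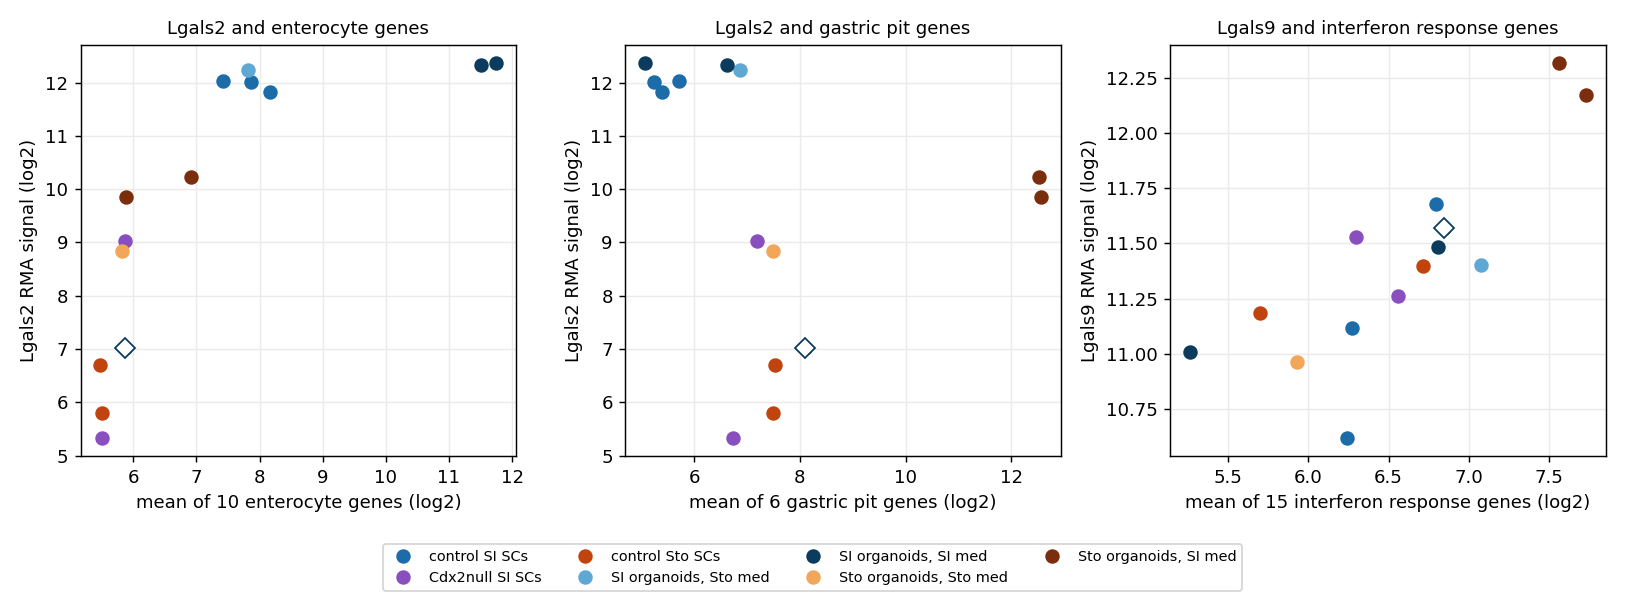
Log2 signal of Lgals2 (y axis) against the mean log2 signal of 10 enterocyte genes and of 6 gastric pit genes (x axes), and of Lgals9 against that of 15 interferon response genes, with 1 point per array and an open diamond for SI organoids SI med 1. Lgals2 is at 11.82 or more where the enterocyte mean is 7.41 or more, and Lgals9 is highest on the 2 Sto organoid arrays in SI med, where the interferon mean is 7.57 and 7.73.

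Across the 14 arrays, Lgals2 ran with the mean of the enterocyte markers (Pearson r = 0.76) and against that of the gastric gland markers (r = -0.85), and Lgals4 likewise against the gland markers (r = -0.82). Sto organoids in SI med, with an enterocyte mean of 5.88 and 6.92, stood off that relation with Lgals2 at 9.85 and 10.23. Lgals9 ran with the gastric pit (r = 0.81) and interferon response means (r = 0.81), and Lgals8 with the pit mean (r = 0.81). The pit mean was 12.57 and 12.53 in Sto organoids in SI med and at most 8.09 on the other 12 arrays. Between members the highest correlations were those of Lgals2 with Lgals4 (r = 0.82) and Lgals8 with Lgals9 (r = 0.79), and the other 13 pairs lay between -0.56 and 0.38. Without array 1, Lgals2 gave 0.75 with the enterocyte mean and 0.84 with Lgals4, the other named correlations were the same to the second decimal, and the other 13 pairs lay between -0.59 and 0.39. These values are descriptions over arrays that share groups, medium and processing.

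The genes whose pattern over the 14 arrays was most like that of a member were, for Lgals1, Eif5a2 (r = 0.96), Smarcb1 (0.95) and Smtn (0.94). For Lgals2 they were the unconventional myosin Myo15b (0.97), Tm4sf5 (0.96) and Ly6g2 (0.95), and for Lgals3 Tnfrsf12a, Phlda3 and Dynll1 (0.94, 0.93 and 0.93). For Lgals4 they were Prkca (0.94), Nipal1 (0.93) and Csk (0.93), and for Lgals8 Atg12 (0.97), Golph3 (0.96) and Klhl28 (0.96). Lgals9 was most like Lgals3bp, which encodes a secreted glycoprotein that binds galectins (0.94), then Map11 and Cptp (0.93 each). Without array 1 the correlations of these genes were 0.93 to 0.97.

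**Figure D4:**
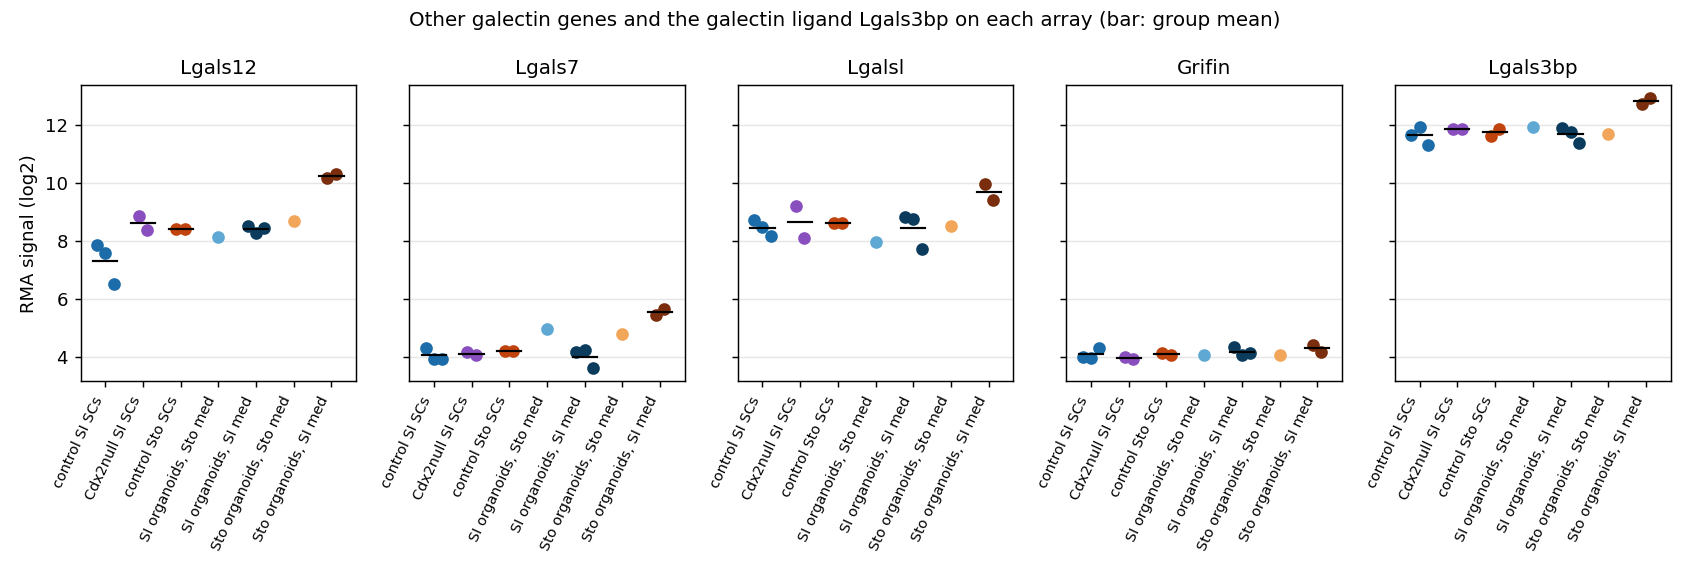
Log2 signal (y axis) of 4 other galectin genes and of Lgals3bp on each array, by group (x axis), with a bar at the group mean. Sto organoids in SI med hold the highest group mean of all 5 genes, with Lgals12 at 10.20 and 10.34.

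Among the other galectin genes, Lgals12, a tandem-repeat galectin known from adipocytes, read 7.86, 7.58 and 6.53 in the control SI SCs, 8.88 and 8.39 in the Cdx2null SI SCs and 8.43 and 8.44 in the control Sto SCs. Those groups did not overlap with the control SI SCs, and the differences of 1.31 and 1.11 were not called (adjusted p = 0.21 for each). In Sto organoids in SI med Lgals12 read 10.20 and 10.34, higher than in SI organoids in SI med (8.54, 8.27 and 8.44) by 1.85 (SE 0.16, adjusted p = 0.0278, and 1.91 without array 1, adjusted p = 0.00219) and than in the control Sto SCs, which were lower by a log2 difference of -1.83 (SE 0.37, adjusted p = 0.0171). Lgals3bp was lower in the control Sto SCs than in those organoids (-1.07, SE 0.23, adjusted p = 0.0239), at 11.65 and 11.88 against 12.74 and 12.93, and so was Lgals7 (-1.35, SE 0.22, adjusted p = 0.0073), a dim gene at 4.21 to 4.23 against 5.47 and 5.67. Between Sto and SI organoids in SI med neither was called with all arrays, and both were higher in Sto organoids without array 1 (Lgals3bp 1.25, adjusted p = 0.0151, and Lgals7 1.64, adjusted p = 0.0106). Lgalsl, galectin-related protein, ran from 7.74 to 9.99 with no call, and Grifin, a lens galectin, stayed at 3.94 to 4.42.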

How the data were processed

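The 14 arrays (Affymetrix Mouse Gene ST 1.1) were analysed from the series table. Its log2 values were deposited by the authors after RMA-sketch background correction, normalization and summarization with Affymetrix Power Tools, 35556 probe sets in all, and were used as they stand. Probe sets were named through the platform annotation (21218 with 1 symbol, 1881 with several, 12457 with none listed), with symbols updated by Entrez ID to RefSeq for 21185, and the probe set of highest mean was kept for each of 18820 genes (1386 had several). Values on 2 arrays had been rounded before the log.

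Groups came from the sample titles. Differences were tested with lmFit and eBayes (limma 3.58.1, R 4.3.3) over all genes, 2-sided, with Benjamini-Hochberg adjustment, and called at an adjusted p under 0.05 and at least 2-fold. Sorted cells, organoids, or all 14 arrays entered each fit as the comparison required. The script was tested on simulated data. All 6 members, called genes of the lists of galectin ligand, cargo and response genes (up to 4 per list and comparison) and the 3 genes of most like pattern for each member were named. The members and lists were chosen with earlier results of these data known. Alternatives were other normalizations, probe set and dim-gene rules, arrays in the fit, the methods' t-test, a replicate block and the omission of arrays. Deviations from the group means of samples sharing a replicate number correlated over 0.1 in 8 of 21 pairs (range -0.19 to 0.40), in 5 of 6 among sorted cells and in 3 of 3 between SI organoids in SI med and the sorted control SI SCs (0.165 to 0.275). By the rule that every one of at least 3 pairs exceed 0.1, the last comparison alone counted as paired, a pairing read from the data, and its block changed no call of a member. Deviations within a group cancel out, so that the pairs of 2 groups are not independent of each other. The pair at 0.275 joins the 2 arrays with rounded values, and the part of their shared export in it was not tested.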

Additional observations from a re-analysis of the deposited data

How the results depend on the processing

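With at most 3 arrays a group, the calls of members were few and moved with the estimate of the spread. The fits of all 14 arrays include SI organoids SI med 1. The Cdx2null SI SCs against control SI SCs gave 1 called member, but 2 with arrays centred on their medians, with dim genes left out and with the methods' t-test unadjusted, 0 with all 14 arrays or that t-test after Benjamini-Hochberg adjustment, and 0 to 2 on leaving out each array (0 without control SI SCs 1, 2 without Cdx2null SI SCs 1). The control Sto SCs against control SI SCs gave 2, but 3 with centred arrays, 0 with all 14 arrays or the adjusted t-test, 1 without both differently exported arrays (chosen after seeing the data), and 0 to 1 on leaving out each array. The control Sto SCs against Sto organoids in SI med gave 1, but 2 with centred arrays, 3 with the groups compared alone or the unadjusted t-test, 0 with the adjusted one, and 0 to 3 on leaving out each array (3 without SI organoids SI med 1, chosen after seeing the data). Without SI organoids SI med 1, the comparison of Sto with SI organoids in SI med and that of control SI SCs with SI organoids gave 1 in place of 0. The cause of these changes was not tested, except that fewer arrays leave fewer degrees of freedom. The comparisons of Cdx2null SI SCs with control Sto SCs, of media and of the origin effects gave 0 members under all alternatives run.

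The replicate block moved no count of called members beyond 1.5 times. It turned the sign of Lgals9 in the Cdx2null (-0.00269) and stomach comparison of sorted cells (-0.107) and of Lgals2 between Sto and SI organoids (0.367). In each of these fits the array of replicate 3 is alone in its block, so that the block gives the difference without that array. The equal values given below for its omission are therefore not separate results. The other reversals were also of differences that were not called. Lgals3 in the Cdx2null SI SCs gave -0.0652 with quantile normalization, -0.0363 with centred arrays and -0.387 to 0.612 on leaving out each array. Without both differently exported arrays Lgals9 gave -0.00269 in the Cdx2null SI SCs and -0.107 in the control Sto SCs, with ranges of -0.00269 to 0.527 and -0.107 to 0.423 on leaving out each array, and in the control Sto SCs -0.00148 with quantile normalization and -0.0503 with centred arrays. Between Cdx2null SI SCs and control Sto SCs, Lgals1 gave 0.0472 with centred arrays and -0.211 to 0.197 on leaving out each array, where Lgals2 gave -0.912 to 2.79 and Lgals4 -0.0159 to 0.529. Lgals2 between Sto and SI organoids gave 0.367 without both exported arrays and -2.30 to 0.367 on leaving out each array, and between control SI SCs and SI organoids -0.392 (without SI organoids SI med 1) to 2.28. Of the other values for single members, 414 kept their direction and side of the threshold, 15 passed where the reported fit did not and 21 no longer passed. The methods' t-test was not run for the medium and origin-effect comparisons, and no array could be left out where it was the only one of its group in a comparison of group means.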
